A study of Mus musculus with 15 samples.

Results

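Tjp1, Lmo7, Slmap and Sptb encode proteins that sit on the inner face of the plasma membrane, at cell junctions or on the membrane skeleton, and they were followed here in mouse heart, transcript by transcript. They are 4 of the 12391 genes that had a named Ensembl transcript in every file, and 17 of the 24756 named transcripts are theirs. The 4 genes were chosen by their FPKM in Control and AngII hearts, low in the former and high after angiotensin II (AngII), so the difference between those groups is described without a test. The question left to the data was whether each gene rose as a whole or moved between its transcripts, and whether the level differed when a preparation labelled QDG was added. The hearts came from male C57BL/6 mice in 3 groups of 5 libraries each: Control, AngII, and AngII+QDG. The labels give QDG as an abbreviation only, and the dose, the duration, the age of the mice and what the Control mice received were not given in the sources used here. Angiotensin II is a vasoconstrictor peptide hormone, and mice exposed to it are a common model of hypertension and cardiac remodelling.

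Cardiac muscle cells are joined end to end at the intercalated disc, where adherens junctions, desmosomes and gap junctions couple contraction and electrical spread. Tjp1 encodes ZO-1, a PDZ-domain scaffold that binds actin and junction proteins and, in heart, the gap junction protein connexin 43. Lmo7 encodes a LIM and PDZ domain protein that binds afadin and alpha-actinin at adherens junctions and emerin at the nuclear envelope. Slmap encodes the sarcolemmal membrane-associated protein, a tail-anchored protein that is also a subunit of the STRIPAK phosphatase complex, which acts on the Hippo kinases. Sptb encodes beta-I spectrin, which pairs with alpha spectrin in the skeleton under the membrane of red cells and muscle and binds ankyrin.

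Each gene has alternative coding forms, and the following exonic stretches tell the listed forms apart. The bases in capitals belong to the named transcript and are absent from its partner, and the lower-case bases are the neighbouring bases of the same transcript; all are written 5′ to 3′ on the gene's strand and were read from the GRCm38 genome. The Tjp1-202 stretch is a whole exon at chr7:65314093-65314332, minus strand, which Tjp1-201 lacks. The Lmo7-206 stretch is part of an exon at chr14:101913159-101913239, plus strand, which Lmo7-201 lacks. The Slmap-201 stretch is part of an exon at chr14:26416212-26416292, minus strand, which Slmap-204 lacks. The Sptb-201 stretch is a whole exon at chr12:76587331-76587590, minus strand, which Sptb-202 lacks.
Tjp1-202: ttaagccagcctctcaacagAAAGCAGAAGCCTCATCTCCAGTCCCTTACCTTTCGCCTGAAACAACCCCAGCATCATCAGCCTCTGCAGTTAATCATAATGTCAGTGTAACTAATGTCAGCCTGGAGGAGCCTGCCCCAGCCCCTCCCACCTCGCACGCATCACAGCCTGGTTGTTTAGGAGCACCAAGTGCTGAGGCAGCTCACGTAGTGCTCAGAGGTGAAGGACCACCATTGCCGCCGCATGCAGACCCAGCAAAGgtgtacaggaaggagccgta
Lmo7-206: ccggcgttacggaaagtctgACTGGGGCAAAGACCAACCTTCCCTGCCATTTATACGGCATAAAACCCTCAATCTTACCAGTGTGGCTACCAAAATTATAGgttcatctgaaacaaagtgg
Slmap-201: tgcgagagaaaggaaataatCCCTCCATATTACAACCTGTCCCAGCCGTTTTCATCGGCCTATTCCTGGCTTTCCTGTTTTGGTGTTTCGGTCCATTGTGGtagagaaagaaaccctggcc
Sptb-201: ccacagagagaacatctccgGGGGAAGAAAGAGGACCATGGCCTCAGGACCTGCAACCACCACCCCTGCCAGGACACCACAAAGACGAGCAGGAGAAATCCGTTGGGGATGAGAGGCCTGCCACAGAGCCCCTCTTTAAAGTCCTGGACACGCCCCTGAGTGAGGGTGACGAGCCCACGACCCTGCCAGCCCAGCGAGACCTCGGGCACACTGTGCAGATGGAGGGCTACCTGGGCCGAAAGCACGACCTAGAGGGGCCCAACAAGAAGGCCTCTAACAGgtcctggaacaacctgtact

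Levels are in FPKM, fragments per kilobase of transcript scaled to library depth, and the gene sum is the sum over a gene's named Ensembl transcripts. FPKM multiplied by transcript length fell on whole multiples of 1 step in 97 to 97.2% of values per library (within 0.1 of a step, where chance gives 20%). Taking a step as a single fragment, depth ran from 5.16e+07 to 7.83e+07 fragments per library, with overlapping groups. The Control libraries stood apart in the balance of transcript lengths. The mean log2(FPKM + 1) of coding transcripts shorter than 1000 nt exceeded that of transcripts of 3000 nt or longer by 0.979 to 1.40 in Control, against 0.766 to 0.961 in AngII and 0.645 to 0.886 in AngII+QDG. Control 3 and Control 5 had the highest balance, at 1.40 and 1.36, and Control 5 listed 20.6% of its transcripts at 0 against 4.96 to 7.10% in AngII. Of 4602 genes with at least 5 FPKM in every AngII library, 56 were listed at 0 in at least 1 Control library. Among them was Usp7, a ubiquitin protease, chosen after its values were seen (Control 0 to 7.29, AngII 7.23 to 8.84 FPKM). In the other direction, 1 of 3630 genes was listed at 0 in an AngII library. A level of 0 is therefore given below as listed at 0, not as absence. The part of these library differences in the levels of the 4 genes was not tested.

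**Figure D1:**
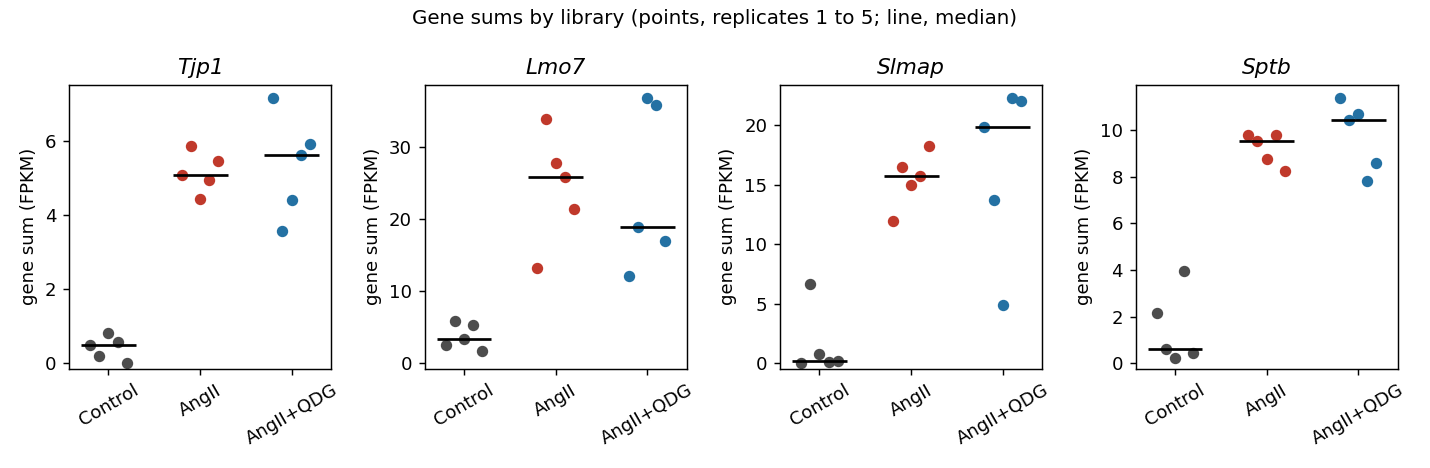
Gene sum in FPKM (vertical axes, linear) of Tjp1, Lmo7, Slmap and Sptb in the 5 libraries of each group (points; the bar is the group median). For every gene the AngII points lie above all Control points, and for Slmap 1 AngII+QDG library at 4.85 FPKM lies below the highest Control library at 6.62 FPKM.

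Tjp1 (ENSMUSG00000030516, chromosome 7, 65296165 to 65527781, minus strand) was listed through both of its measured coding transcripts, of 7 annotated. Its gene sum in Control libraries 1 to 5 was 0.479, 0.194, 0.805, 0.562 and 0 FPKM. In AngII it was 5.10, 5.88, 4.43, 4.95 and 5.47 FPKM, and in AngII+QDG 7.17, 3.58, 4.40, 5.64 and 5.93 FPKM. Every library of both treated groups lay above every Control library, and the treated groups overlapped; the median in AngII was 10.6-fold that in Control. Most of the treated level was Tjp1-201, the form of 6102 nt without the exon printed above: it was at 0.479, 0.0445, 0.0558, 0.101 and 0 FPKM in Control and at 4.45, 5.44, 4.31, 4.40 and 4.87 FPKM in AngII. Tjp1-202, the 7049-nt form with that exon, did not follow it. It ranged from 0 to 0.749 FPKM in Control and from 0.116 to 0.647 FPKM in AngII, so the groups overlapped. Tjp1-201 thus made up 33.3% of the summed Control level, 90.9% in AngII and 95.2% in AngII+QDG. The forms share 85.7% of the bases of Tjp1-202, so fragments on those bases fit both. The gene sum of Tjp1 was higher after AngII, and the difference lay in the shorter form.

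Lmo7 (ENSMUSG00000033060, chromosome 14, 101729957 to 101934710, plus strand) was not near 0 in Control when its FPKM were summed over the gene. Its gene sum in Control was 2.49, 5.82, 3.33, 5.33 and 1.64 FPKM. These sums rest on 295, 429, 360, 623 and 127 steps, against 192, 88, 380, 282 and 0 for Tjp1. A short transcript adds more FPKM per step: Lmo7-213, of 597 nt, was at 2.05 FPKM in Control 2 on 81 steps. In AngII it was 13.2, 33.9, 27.8, 25.9 and 21.4 FPKM, and in AngII+QDG 12.03, 18.9, 36.9, 35.8 and 17.0 FPKM. All treated libraries lay above all Control libraries, and the AngII median was 7.78-fold the Control median. The coding transcript Lmo7-206 (5423 nt, its 5′ end marked incomplete in the annotation) was listed at 0 in 4 Control libraries and at 0.0532 FPKM in Control 5. In AngII it stood at 1.14, 19.3, 19.4, 16.4 and 11.9 FPKM, and in AngII+QDG at 0, 4.81, 24.8, 23.3 and 1.82 FPKM. Lmo7-206 therefore varied widely inside both treated groups, and AngII+QDG 1 had none of it listed although its gene sum was 12.03 FPKM. The rest of the gene sum, which holds no coding transcript in the Control and AngII files, ranged from 1.59 to 5.82 FPKM in Control and from 8.45 to 14.6 FPKM in AngII. Retained-intron transcripts were among that remainder: Lmo7-208 was at 0 to 2.94 FPKM in Control and at 3.77 to 6.47 FPKM in AngII, and Lmo7-214 at 0.0688 to 1.86 and 2.98 to 5.11 FPKM. Lmo7-203 was also higher in every AngII library (0.4044 to 1.13 FPKM) than in every Control library (0.116 to 0.4036 FPKM). The retained-intron transcript Lmo7-216 and the processed transcript Lmo7-213 overlapped between these groups. Of the bases of Lmo7-208, 68.1% are also exonic in Lmo7-206, and of Lmo7-214, 88.7%. The coding transcript and 3 of the 4 retained-intron transcripts of Lmo7 were higher in every AngII library than in every Control library. The long coding form Lmo7-201 was listed in the AngII+QDG files alone, at 0 to 0.595 FPKM.

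Slmap (ENSMUSG00000021870, chromosome 14, 26413168 to 26534931, minus strand) had 4 of its 16 annotated transcripts in the Control and AngII files. Its gene sum in Control was 0.0404, 6.62, 0.722, 0.109 and 0.146 FPKM. In AngII it was 11.98, 16.5, 14.99, 15.7 and 18.3 FPKM, and in AngII+QDG 19.9, 13.7, 4.85, 22.3 and 22.1 FPKM. The AngII+QDG sums include the processed transcript Slmap-207, listed in those files alone, at 0.0866 to 2.78 FPKM. Control 2 stood far above the other Control libraries, and AngII+QDG 3 below the other treated ones. The fold of the medians, 108 for AngII over Control, has a Control median of 0.146 FPKM under it, which rests on 4 steps in that library; the fold of the means was 10.1. The coding transcript Slmap-204 (3962 nt) made the difference: it was listed at 0 in 4 Control libraries and at 6.49 FPKM in Control 2, against 11.2, 15.6, 12.3, 12.3 and 14.3 FPKM in AngII. In AngII+QDG it was at 16.0, 12.3, 1.27, 17.0 and 17.1 FPKM. Slmap-201, the longer coding form with the stretch printed above, was low in 2 and higher in 3 libraries of each treated group. It was at 0.114, 0.0740, 1.80, 2.06 and 1.89 FPKM in AngII and at 0.123, 0.134, 1.74, 1.92 and 1.30 FPKM in AngII+QDG. In Control it was between 0 and 0.276 FPKM, so that 2 AngII libraries fell within the Control range. The retained-intron transcript Slmap-209 was higher in every AngII library (0.255 to 1.05 FPKM) than in every Control library (0.0404 to 0.146 FPKM), on 6 to 31 steps against 1 to 4. Slmap-204 made up 84.9% of the summed AngII level. Its share of the summed Control level, 85.1%, came from Control 2 alone, and in the other Control libraries it was listed at 0.

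Sptb (ENSMUSG00000021061, chromosome 12, 76580488 to 76710547, minus strand) had a leading transcript that was listed at 0 in every Control library. Its gene sum in Control was 2.13, 0.604, 0.198, 3.96 and 0.448 FPKM, in AngII 9.81, 9.54, 8.79, 9.79 and 8.24 FPKM, and in AngII+QDG 11.4, 10.5, 10.7, 7.84 and 8.60 FPKM. The AngII libraries lay close together, at 9.23 ± 0.694 FPKM (SD, n = 5), and the AngII median was 15.8-fold the Control median, while the fold of the means was 6.29. The Control median, 0.604 FPKM in Control 2, rests on 26 steps, 21 of them on the retained-intron transcript Sptb-203. Sptb-201, the long form of 10394 nt that ends in the pleckstrin homology domain known from muscle and brain, was listed at 0 in all 5 Control libraries. It was at 9.22, 9.30, 8.21, 9.46 and 8.20 FPKM in AngII. For this length 1 step is worth 0.00147 FPKM, so the lowest value above 0 that a library can show is far below the AngII level. Sptb-201 was the 1 named Ensembl transcript listed at 0 in all Control libraries and at 5 FPKM or more in all AngII libraries; none showed the reverse. Sptb-202, the shorter form known from red cells, was at 1.41, 0.00932, 0.0311, 2.26 and 0.0866 FPKM in Control and at 0.234, 0.0356, 0.282, 0.00648 and 0.0190 FPKM in AngII. The highest Control values of this form were in Control 1 and 4, which were also the highest Control gene sums. The retained-intron transcript Sptb-203 was at 0.167 to 1.70 FPKM in Control and at 0.0240 to 0.365 FPKM in AngII, and 71.2% of its bases are exonic in Sptb-201. Sptb-203 made up 98.5, 84.3 and 80.7% of the gene sum in Control 2, 3 and 5, on 21, 6 and 14 steps. The remainder of the gene sum beside Sptb-201 had a median of 0.604 FPKM in Control and 0.326 FPKM in AngII with overlapping ranges, while the sum was higher in every AngII library. The gene sum was therefore higher in AngII, and the difference lay in Sptb-201. The other coding form, Sptb-202, stood above its AngII range in Control 1 and 4 only. The AngII+QDG files list Sptb-201 alone for this gene, at 11.4, 10.5, 10.7, 7.84 and 8.60 FPKM.

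**Figure D2:**
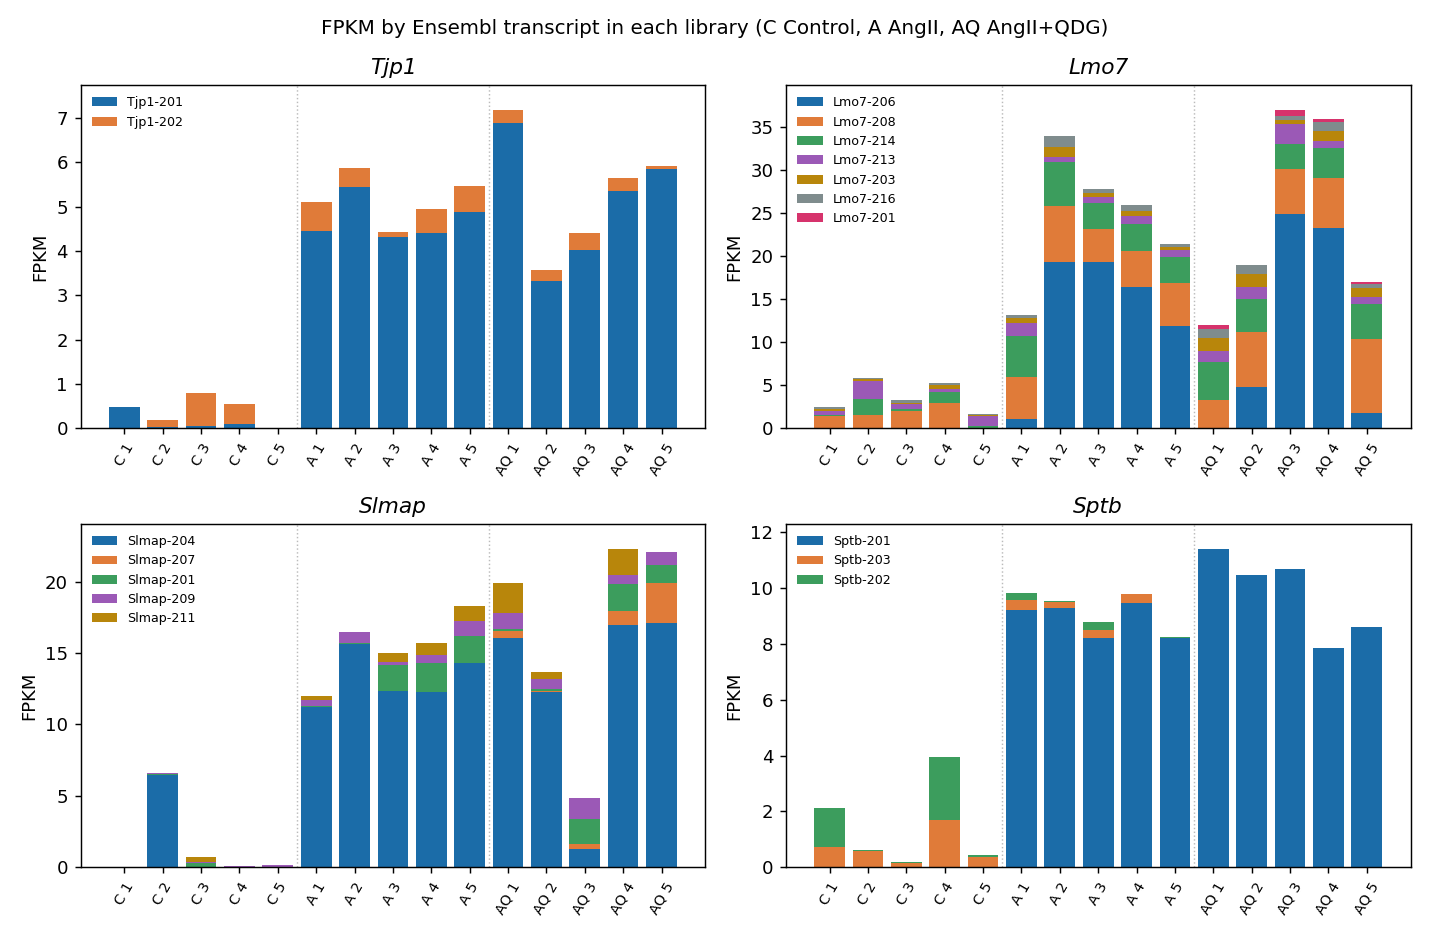
FPKM of each listed Ensembl transcript, stacked to the gene sum, in each of the 15 libraries (C Control, A AngII, AQ AngII+QDG; a transcript not listed in a file is drawn as 0). Sptb-201 is listed at 0 in all Control bars and makes up 96.1% of the AngII sum, while for Lmo7 the leading transcript makes up 55.7% of the AngII sum.

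Of the 15 transcripts of the 4 genes that the Control and AngII files list, 8 were higher in every AngII library than in every Control library, 7 overlapped and 0 were lower throughout. Over all 21550 transcripts tested, 7.03% were higher throughout. For gene sums, 4 of 4 were higher throughout, where 10.1% of all 12267 genes tested were; this contrast chose the genes, and nothing is read from the count. On the log2(FPKM + 1) scale the AngII minus Control difference was 2.16 ± 0.180 (SE) for Tjp1, 2.46 ± 0.343 for Lmo7, 3.21 ± 0.498 for Slmap and 2.27 ± 0.305 for Sptb, against a median of 0.20 over all genes. That scale understates the change of low genes. With the length balance of each library as a covariate, the differences were 1.81, 2.38, 3.08 and 1.10 in the same order, and Sptb, with the longest lead transcript of the 4, moved most. Without Control 3 and Control 5 they were 2.13, 2.19, 2.99 and 1.81. Among all genes, limma called 13.4% different between AngII and Control (11.9% higher and 1.48% lower), and the share called higher followed length: 4.21% of genes with a lead transcript under 2000 nt, 12.9% from 2000 to 4000, 21.2% from 4000 to 6000 and 25.5% of 6000 nt or longer. With the covariate, limma called 0 genes, with 651 at an unadjusted p under 0.05, while voom without it called 1565. The balance did not overlap between Control (0.979 to 1.40) and AngII (0.766 to 0.961). The covariate and the treatment therefore cannot be told apart in that fit, and nothing is read from its counts or differences.

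None of the 4 genes passed the test between AngII+QDG and AngII. The choice of genes did not use the AngII+QDG libraries, but it did use the AngII libraries, so this test is not independent of the choice. The difference was 0.02 ± 0.180 (SE; 95% interval -0.37 to 0.40) for Tjp1 and 0.07 ± 0.305 (-0.58 to 0.72) for Sptb on the log2(FPKM + 1) scale. For Lmo7 it was -0.08 ± 0.343 (-0.81 to 0.65) and for Slmap -0.06 ± 0.498 (-1.12 to 1.01). The limma adjusted p was 0.998 for each gene. A transcript missing from a file counted as 0 in its gene sum. The Slmap sum held 5 transcripts in AngII+QDG and 4 in AngII, that of Lmo7 7 and 6, and that of Sptb 1 and 3. The spread behind these intervals was estimated over all 3 groups, so the Control libraries also set their width. With AngII and AngII+QDG fitted alone, the SE was 0.153 for Tjp1, 0.334 for Lmo7, 0.347 for Slmap and 0.110 for Sptb. The intervals stay widest for Lmo7 and Slmap, whose treated libraries spread most, and a change inside an interval could not be told from none here. Of all 12267 genes, limma called 0 (0%), with 578 at an unadjusted p under 0.05 and 1 called by voom on the whole steps. Of 21550 transcripts it called 0 (0%), with 991 at an unadjusted p under 0.05. Among the 12 tested transcripts of these genes, the difference was 0.12 ± 0.122 (SE) for Sptb-201, 0.07 ± 0.175 for Tjp1-201, -0.34 ± 0.623 for Slmap-204 and -0.85 ± 0.825 for Lmo7-206, with a limma adjusted p of 0.999 for each. Lmo7-203 had the lowest unadjusted p, 0.0248, at 0.40 ± 0.158, and its limma adjusted p was also 0.999.

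**Figure D3:**
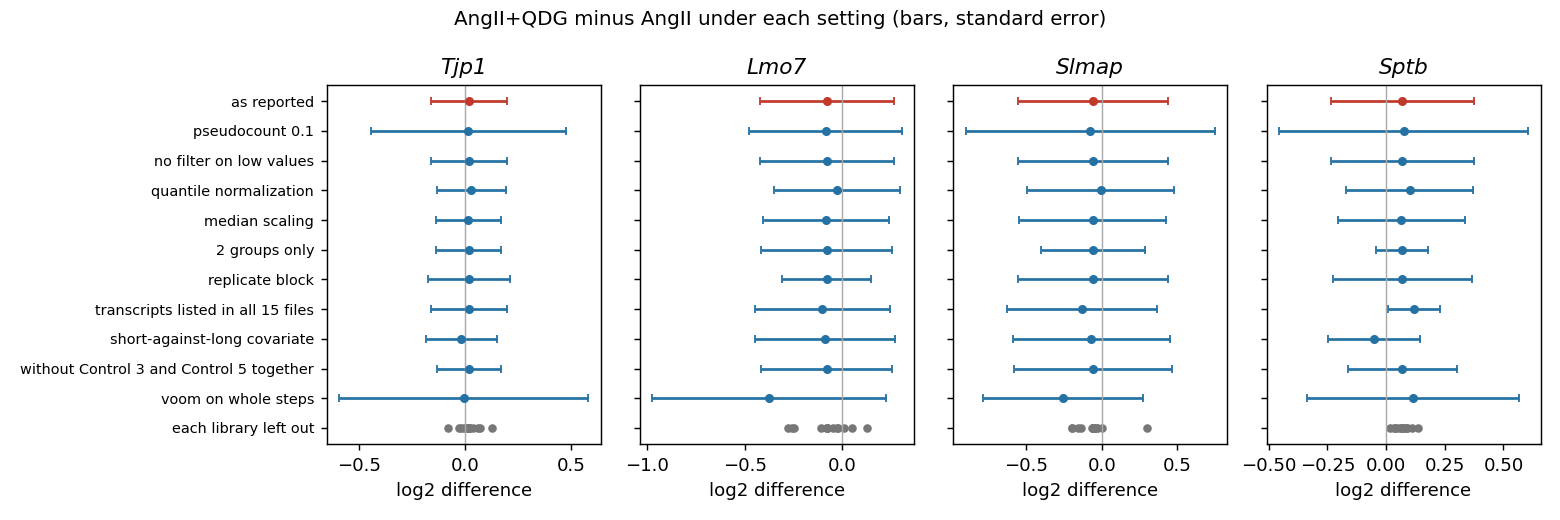
Difference AngII+QDG minus AngII on the log2(FPKM + 1) scale (horizontal axes) for each of the 4 genes under each setting (rows); points are estimates, bars are standard errors, and the lowest row shows the estimate with each library left out in turn. The values as reported lie between -0.08 and 0.07, and none passed the test under any setting drawn.

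Against Control, the AngII+QDG level was higher by 2.17 ± 0.180 (SE) for Tjp1, 2.38 ± 0.343 for Lmo7, 3.15 ± 0.498 for Slmap and 2.33 ± 0.305 for Sptb on the log2(FPKM + 1) scale, where the median over all genes was 0.18. This comparison shares its Control libraries with the one that chose the genes, and no test is given. The transcripts in the sums of Lmo7, Slmap and Sptb differ between these files too. All AngII+QDG libraries lay above all Control libraries for 3 of the 4 genes, where 12.8% of all genes did; Slmap was the exception. Over all genes, limma called 19.4% different, 16% higher and 3.31% lower.

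The genes whose level followed each of the 4 most closely over the 15 libraries were searched among 9527 genes, as the smallest mean absolute difference in centred log2(FPKM + 1). For Tjp1 these were Adam10, a membrane-bound protease (0.258), Slc38a2, an amino acid transporter (0.262), and Atg4a, an autophagy protease (0.275), where the median over all genes was 0.879. For Sptb they were Ndst1, an enzyme of heparan sulfate synthesis (0.256), Usp7 (0.324) and Tjp1 itself (0.363), with a median of 0.939. For Lmo7 they included Bms1, a ribosome assembly factor (0.472), and Btnl9 (0.534), with a median of 1.03. Slmap had Btnl9 (0.707), Rnf216 (0.735) and Lmo7 (0.748), with a median of 1.40. The 4 genes had been chosen as low in Control and high in AngII. A search for the genes closest to them therefore returns that pattern by construction, and nothing is read from it. The median of Adam10, for instance, was 0.511 FPKM in Control and 5.24 in AngII, and that of Ndst1 was 0 and 5.07.

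Partners of the 4 proteins were read from 6 lists of 125 genes, of which 108 were tested between AngII and Control. Of these, 33 rose (30.6%, against 11.9% of all genes) and 0 fell, with a median difference of 0.45 against 0.20. The lists hold long genes, with a median lead transcript of 2086 to 4328 nt per list, and 12.9 to 21.2% of all genes from 2000 to 6000 nt were called higher, so the share over all genes is not matched to them in length. Without Control 3 and Control 5, 2 rose, Pkp2 and Cavin4. Under quantile normalisation 16 rose and 1, Nectin2, fell. With the length covariate limma called 0, with 6 at an unadjusted p under 0.05, and voom without it called 28. That covariate cannot be told apart from the treatment here. Among adherens junction, desmosome and intercalated disc genes, 10 of 20 rose and 0 fell (median 0.62). Pkp2, a desmosomal plakophilin, went from 28.9 ± 4.94 to 47.7 ± 3.48 FPKM (SD, n = 5), a log2 difference of 0.72 ± 0.117 (SE), limma adjusted p = 0.00747. Vcl, which links adherens junctions to actin, went from 3.73 ± 1.30 to 12.7 ± 4.52 FPKM (SD, n = 5), limma adjusted p = 0.00747. Without Control 3 and Control 5 the limma adjusted p was 0.0174 for Pkp2 and 0.0503 for Vcl.

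Over all genes 11.9% were called higher, a share not matched to the lists in length. Among STRIPAK and Hippo genes, 9 of 20 rose and 0 fell (median 0.56), and without Control 3 and Control 5 0 passed. Lats2, a Hippo kinase, went from 2.72 ± 0.227 to 5.73 ± 1.13 FPKM (SD, n = 5), limma adjusted p = 0.0136, and 0.0538 without those libraries. Among sarcolemma, dystrophin complex and caveola genes, 8 of 20 rose and 0 fell (median 0.46). Cavin4, a muscle caveola protein, went from 34.5 ± 8.05 to 65.4 ± 5.27 FPKM (SD, n = 5), limma adjusted p = 0.00824, and 0.0244 without Control 3 and Control 5. The counts of the tight junction, LIM and spectrin lists lie near the share over all genes, and nothing is read from them. Of the tight junction genes and ZO partners, 2 of 17 rose and 0 fell (median 0.29): Magi3 (limma adjusted p = 0.0197) and Cxadr (limma adjusted p = 0.0465). The call of Magi3 was lost without AngII 2 (limma adjusted p = 0.054), and that of Cxadr without any 1 library except Control 4, AngII 3 and AngII+QDG 5 (limma adjusted p up to 0.113). Of the LIM and PDZ-LIM genes, 3 of 18 rose and 0 fell (median 0.35): Lpp, Limch1 and Zyx, each of which lost its call without Control 3, AngII 2, AngII 4 or AngII 5, and also without others. Of the spectrin, ankyrin and 4.1 genes, 1 of 13 rose and 0 fell (median 0.13, against 0.20 over all genes). The 1 that rose was Sptbn1, beta-II spectrin, from 22.1 ± 11.2 to 48.3 ± 8.73 FPKM (SD, n = 5), limma adjusted p = 0.0254; its log2 difference was 1.24, and -0.07 with the length covariate, and its call was lost without Control 3, Control 5, AngII 2, AngII 4 or AngII 5 (limma adjusted p 0.0513 to 0.0646). Ank2, ankyrin-B, was at 5.52 ± 3.74 FPKM in Control and 1.11 ± 1.34 FPKM in AngII (SD, n = 5), a log2 difference of -1.59 ± 0.519 (SE) with a limma adjusted p of 0.0556. Without Control 4 it passed, at -2.03 with a limma adjusted p of 0.0104. Without Control 3 and Control 5 the limma adjusted p of Ank2 was 0.27, and with 2 groups only it was 0.108. With the length covariate, which cannot be told apart from the treatment, its difference was -0.759. Between AngII+QDG and AngII, 0 of the 108 genes were called by limma and 0 by voom, with 11 at an unadjusted p under 0.05.

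**Figure D4:**
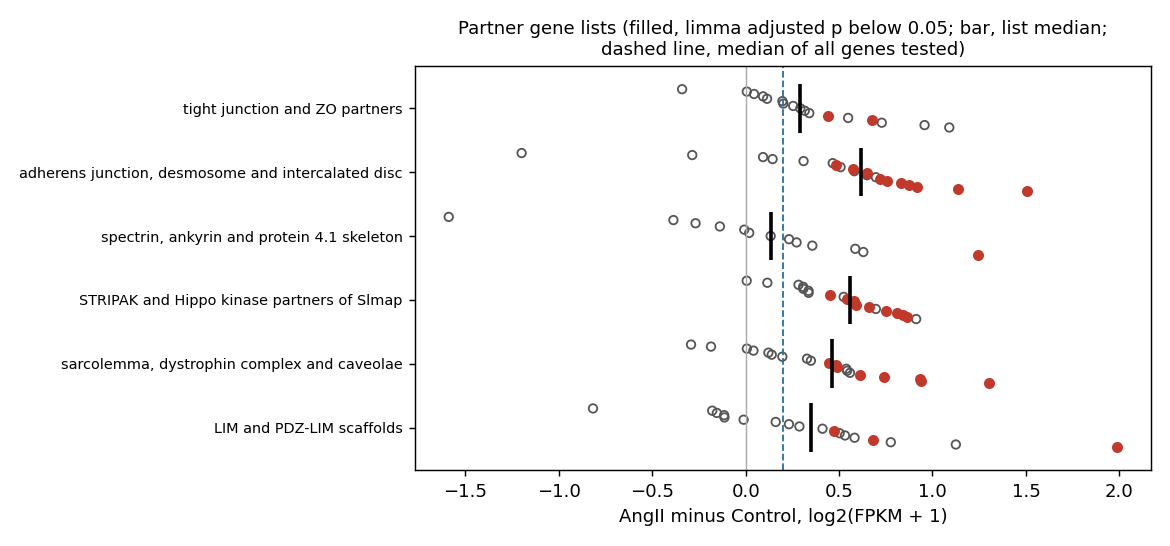
Log2(FPKM + 1) difference AngII minus Control (horizontal axis) of each tested gene in the 6 partner lists (rows); filled points passed limma at an adjusted p below 0.05, the bar is the list median and the dashed line the median of all genes. The filled points lie to the right of 0, with 10 in the intercalated disc list and 1 in the spectrin list. Of all genes tested, 11.9% passed and were higher.

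Promoter windows of 250 bases before the RefSeq start site (RefSeq sequence, GRCm38.p6) are shown for the 3 genes with a window that overlaps no annotated exon, to set the annotated start site beside the starts of the listed transcripts. The capitals mark the motifs found on either strand: the GC box GGGCGG, read on both strands, and AGATAA, which abuts a GC box in the Lmo7 window.
Lmo7: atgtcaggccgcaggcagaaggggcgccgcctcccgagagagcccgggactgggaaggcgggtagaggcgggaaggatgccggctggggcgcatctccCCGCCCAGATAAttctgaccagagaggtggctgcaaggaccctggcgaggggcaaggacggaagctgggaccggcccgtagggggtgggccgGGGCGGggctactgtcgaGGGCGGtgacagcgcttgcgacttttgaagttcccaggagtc
Sptb: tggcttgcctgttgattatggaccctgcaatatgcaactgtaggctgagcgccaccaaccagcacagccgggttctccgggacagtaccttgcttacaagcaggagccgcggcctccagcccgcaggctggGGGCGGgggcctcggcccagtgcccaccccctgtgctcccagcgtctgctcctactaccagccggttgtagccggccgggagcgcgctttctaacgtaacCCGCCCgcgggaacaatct
Tjp1: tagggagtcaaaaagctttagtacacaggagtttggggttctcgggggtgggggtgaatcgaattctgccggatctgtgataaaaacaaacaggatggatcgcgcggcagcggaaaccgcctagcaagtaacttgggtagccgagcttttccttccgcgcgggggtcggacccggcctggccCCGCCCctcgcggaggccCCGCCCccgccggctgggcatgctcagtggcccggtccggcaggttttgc
They lie at chr14:101729678-101729927 (plus strand), chr12:76710548-76710797 and chr7:65371245-65371494 (minus strand). The start of Sptb-201 is at the Sptb site itself, Tjp1-202 starts 5 bases from the Tjp1 site and Tjp1-201 229 bases downstream of it. Lmo7-201 starts 29 bases from the Lmo7 site of the window shown. The annotated start of the leading Lmo7-206 is 146896 bases downstream of that site. Its 5′ end is marked incomplete, so this distance does not place its start site. Another RefSeq start site of Lmo7 lies 36201 bases upstream of the start of Lmo7-206. Its window overlaps exons of Lmo7-216 and Lmo7-202 and is not shown. The Lmo7 window holds 3 GC boxes and 1 AGATAA, and the Sptb and Tjp1 windows hold 2 GC boxes each. A GC box is present in 32.7% and AGATAA in 9.99% of 32851 promoter windows, and TATAAA (12.4%), TGANTCA (6.75%), GGAATG (12.6%), CCAAT (33.8%) and the CArG box (1.47%) were also searched and are in none of the 3.

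The tissue label was checked against marker genes. The summed level of 8 cardiomyocyte markers was 20980 to 29430 FPKM in Control, 22780 to 25840 in AngII and 17250 to 31310 in AngII+QDG, with 1 called higher between AngII and Control; Myl2, the ventricular myosin light chain, was at 6976 to 9263, 5602 to 7119 and 5300 to 7739 FPKM. Of 6 skeletal muscle markers 0 were listed. In bulk tissue, more cells of a type and more RNA per cell cannot be told apart. Beside Sptb, a red cell gene, the 6 measured of 10 erythroid markers summed to 3796 to 12220 FPKM in Control and 2199 to 9325 in AngII, with 0 called. The other 4 were not analysed here. Beside Tjp1, a gene of endothelium and epithelium too, 8 endothelial markers summed to 114 to 205 FPKM in Control and 182 to 245 in AngII, with 1 called higher, and the 3 measured of 8 epicardial and epithelial markers summed to 0 to 7.73 and 0.758 to 4.79 FPKM with 0 called. Fibroblast markers (7 of 7; 218 to 296 and 253 to 385 FPKM, 0 called), smooth muscle markers (6 of 6; 144 to 255 and 238 to 357, 1 called higher) and macrophage markers (6 of 6; 157 to 308 and 166 to 300, 0 called) overlapped between Control and AngII. Over all genes 11.9% were called higher, so 1 call in a list of 8 or 6 markers is near that share. Nothing is read from these calls. The part of these cell types in the levels of the 4 genes was not tested.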

How the data were processed

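Total RNA of 15 mouse hearts, 5 per group, was depleted of ribosomal RNA and sequenced; per the labels, an NEB kit was used for the libraries. The authors deposited 1 table per library with an FPKM value for each transcript (31685 transcripts in Control and AngII files, 31734 in AngII+QDG files), including assembled transcripts with no gene name, which were left out of gene sums. GRCm38 and limma are named per the submitters' processing notes; the aligner, the quantifier and their use of strand were not given in the sources used here. Transcripts were named from GENCODE M21. Named Ensembl transcripts were summed per gene, log2(FPKM + 1) was computed, genes with at least 0.5 FPKM in 5 libraries were kept, and all 15 libraries were fitted with limma 3.58.1 in R 4.3.3 (trend, robust), with Benjamini-Hochberg adjustment and a threshold of 0.05. Python 3.11.15 with pandas 2.3.3 (on numpy 2.4.6) made the tables, and matplotlib 3.10.9 the figures. The scripts were tested on simulated data. The design text gives 5 mice per group, and no label ties libraries to litters, days or runs.

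The members and the gene lists were chosen with earlier results of these data known. Named genes were the 4 genes and their transcripts, up to 3 genes per partner list with the smallest limma p, the 3 most alike genes per member (1 of them is not reported here), the 2 highest genes per marker list, and others stated as chosen after their values were seen. Alternatives were another pseudocount, no filter on low values, scaling by quantiles or by the median, 2 groups fitted alone, a replicate block, a length covariate, voom on the whole steps and leaving out libraries.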

Additional observations from a re-analysis of the deposited data

Results flagged for a closer look

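In 6 of 57 groups of 5 libraries, the highest library lay further from its nearest neighbour than Dixon's critical share of 0.71 of the group's range. For normal values that share sets apart about 1 group in 20, a rate that does not hold here. A group with 1 library above 0 and the others at 0 meets the rule by itself, as for Slmap-204, Slmap-211 and Lmo7-206. The flags of the Slmap gene sum and Slmap-204 rest on the same library. All 6 are Control libraries, the group in which the genes were chosen as low. The Slmap gene sum was 6.62 FPKM in Control 2, where the others reached 0.722, and Slmap-204 was at 6.49 FPKM in the same library, with the others listed at 0. Tjp1-201 was at 0.479 FPKM in Control 1 and at most 0.101 in the others. Slmap-201 was at 0.276 FPKM and Slmap-211 at 0.367 FPKM in Control 3, where the others were at most 0.00335 and 0. Lmo7-206 was at 0.0532 FPKM in Control 5 and listed at 0 in the others.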

How the results depend on the processing

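The AngII minus Control difference of the 4 genes kept its direction under every alternative run, but its size moved. With a pseudocount of 0.1 it was 3.71 (Tjp1), 4.88 (Slmap) and 3.21 (Sptb), and AngII+QDG minus Control was 3.73, 4.80 and 3.28. With voom on the whole steps it was 5.19 (Tjp1), 4.01 (Lmo7), 7.58 (Slmap) and 5.52 (Sptb), and 5.18, 3.64, 7.33 and 5.63 for AngII+QDG. With transcripts listed in all 15 files Sptb was 3.30 and 3.42. With the length covariate Tjp1 was 1.81 and 1.80 and Sptb 1.10 and 1.05, while Sptbn1, Tmod1 and Dag1 turned to -0.0745, -0.135 and -0.0972. The covariate did not overlap between Control and either treated group, so it cannot be told apart from the treatment. Genes called between AngII and Control numbered 1638, 819 with quantile normalisation (406 higher, 413 lower), 1076 with median scaling (361 higher, 715 lower), 317 with 2 groups only, 97 without Control 3 and 5 together and 0 with the covariate. For AngII+QDG against Control they numbered 2374, 1438 with 2 groups only, 1199 without Control 3 and 5 and 0 with the covariate. For AngII+QDG against AngII 1 gene was called with a pseudocount of 0.1, with the covariate and with voom. Same-numbered libraries of different groups did not deviate together over all genes (correlations -0.096 to 0.087 over 15 pairs), so no pairing by number was seen. Pairs with unlike numbers were not compared, and a pairing limited to some genes was not tested. With the replicate block 516 genes were called between AngII and Control.

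Leaving out 1 library at a time gave 316 to 2484 genes called between AngII and Control: 316 without AngII 2, 474 without AngII 4, 504 without AngII 5, 702 without Control 3, 793 without Control 5, 878 without AngII 1, 982 without Control 2 and 2484 without Control 4. It gave 1452 to 3022 for AngII+QDG against Control and 0 to 1 for AngII+QDG against AngII. AngII minus Control was then 2.04 to 2.25 for Tjp1, 2.27 to 2.65 for Lmo7, 3.02 to 3.74 for Slmap and 2.06 to 2.57 for Sptb, and AngII+QDG minus Control was 2.96 to 3.68 for Slmap and 2.13 to 2.64 for Sptb. For Lmo7-206, AngII+QDG minus AngII ran from -1.46 without AngII 1 to -0.188 without AngII+QDG 1, and was -1.36 without AngII+QDG 3, -1.34 without AngII+QDG 4, -0.562 without AngII+QDG 5, -1.48 with a pseudocount of 0.1 and -2.49 with voom, with no call. Other AngII+QDG minus AngII differences changed sign: Tjp1 -0.0814 to 0.127, Lmo7 -0.276 to 0.125, Slmap -0.198 to 0.300, Tjp1-201 -0.0336 to 0.182, Lmo7-214 -0.0624 to 0.0919, Slmap-201 -0.286 to 0.119, Slmap-204 -0.520 to 0.228 and Slmap-211 -0.0691 to 0.333. They also did so with the covariate (Tjp1 -0.0181, Sptb -0.0510), with voom (Tjp1 -0.0074, Slmap-211 -0.903, Lmo7-214 0.0205), with a pseudocount of 0.1 (Slmap-211 -0.0389, Lmo7-214 0.0014) and with quantile normalisation (Lmo7-214 0.0017). The cause of these moves was not tested.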
